A study of Homo sapiens with 8 samples.

Results

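The keratin genes of a human hepatic cell line, of a transfected derivative of it and of that derivative after bioprinting were examined by RNA sequencing. Members were all protein-coding rows of the deposited gene table whose symbol is KRT followed by digits and at most one letter A, B or C. This gave 55 of 58735 genes in the table, of which 19951 are protein-coding. By family, 28 encode type I keratins, 26 encode type II keratins, and KRT222 is a keratin-like gene outside both types. The genes lie in 2 clusters, with 27 on chromosome 12 and 28 on chromosome 17.

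Keratins are the intermediate filament proteins of epithelial cells, and each filament is built from pairs of an acidic type I and a basic type II chain. In the liver, hepatocytes carry KRT8 and KRT18, while cells of the bile ducts carry KRT7 and KRT19 as well. Other members belong to stratified epithelia such as the epidermis, and the hair keratins form the hard filaments of hair and nail.

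All cells were of the HepaRG line, a human bipotent hepatic progenitor line labelled as hepatic stem cells from liver. M14A printed (2 libraries) is HepaRG labelled as transfected with FoxM1/HNF4A, mixed into a bioink called GP, bioprinted, and collected 4 h later by freezing and grinding the construct. M14A plate (3 libraries) is the transfected line grown in flasks, and HepaRG plate (3 libraries) is the wild-type line grown in flasks. Flask cells were detached and pelleted before lysis, so printing and the way of collection cannot be told apart. The promoter that drives the transfected genes, and whether M14A is a clone or a pool, are details not given in the sources used here. Comparisons were M14A printed with M14A plate, which asks what differs after printing, and M14A plate with HepaRG plate, which asks what differs in the transfected line. Both use the M14A plate libraries, so their results are not independent of each other.

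Reads recovered from the deposited values numbered 15632154 to 19148262 per library, and keratins took 0.125 to 0.253% of them. HNF4A, named in the genotype label, stood at 17.1 and 13.6 FPKM in M14A printed, at 37.9, 43.1 and 41.7 FPKM in M14A plate and at 5.67, 6.24 and 6.50 FPKM in HepaRG plate. FOXM1, the other gene named there, was not higher in M14A, at 10.1 FPKM in both printed libraries, 8.92 to 13.0 FPKM in M14A plate and 12.9 to 14.9 FPKM in HepaRG plate. Of the 7 hepatocyte markers, 5 reached 1 FPKM in some group, and their summed level was 767 to 787 FPKM in M14A printed, 497 to 607 FPKM in M14A plate and 24.1 to 26.2 FPKM in HepaRG plate. Summed levels of 8 biliary markers, KRT7 and KRT19 included, were 47.4 to 50.7 FPKM in M14A printed, 26.8 to 63.7 FPKM in M14A plate and 116 to 121 FPKM in HepaRG plate. EPCAM, a marker of bile duct cells, was listed at 0 in both M14A groups. Summed levels of 8 stellate cell and fibroblast markers, 4 of them at 1 FPKM or more in some group, were 71.7 to 80.4 FPKM in M14A printed, 26.8 to 58.9 FPKM in M14A plate and 18.1 to 20.1 FPKM in HepaRG plate. That list went both ways between the lines: DCN was called higher in M14A plate (27.9 ± 10.1 against 3.15 ± 0.217 FPKM in HepaRG plate), and PDGFRB and COL1A1 were called lower. DCN was also the one called in printed cells, where it was higher. Of 6 leukocyte markers, LAPTM5 and CD14 were tested, and both were called higher in M14A plate than HepaRG plate (log2 differences 1.60 and 0.72), with PTPRC at or near 0 throughout; KDR was called higher there as the one endothelial marker tested of 6. Over all genes tested, 16.1% were called higher and 14.7% lower in M14A plate than HepaRG plate. The part of these lists in the results was not tested. M14A plate library 1 stood apart from the other M14A plate libraries (Pearson correlation across genes 0.957 and 0.948, against 0.988 between those 2). Keratin results that rest on it are given without it too, but results of the other lists are not. The labels do not tie replicates to separate cultures, so each p-value reflects the spread among these libraries alone, which may be technical.

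Of the 55 genes, 13 reached 1 FPKM (fragments per kilobase of gene, on the authors' scale) in at least 2 libraries and were tested, 5 of type I and 8 of type II. Another 30 had reads but stayed below that level, and 12 had no read in any library. A gene was called at a limma adjusted p (Benjamini-Hochberg over all 14349 genes tested) below 0.05. Changes are given as log2 differences of FPKM + 1, also called log2 fold changes, which understate the change of low genes. In M14A printed against M14A plate, 8 of 13 were called higher and 0 lower. Over all genes tested 17.7% were called higher and 15.5% lower there, and the median log2 fold change was 0.69 for the 13 keratins and 0.01 for all genes. None of the 13 was lower at an unadjusted p below 0.05 either, and voom weights on recovered reads also called 0 lower. In M14A plate against HepaRG plate, 5 were called higher and 5 lower, with all genes at 16.1% and 14.7%. The median there was -0.01 for the keratins and -0.04 for all genes. In bulk samples, a change in the share of cells that express a gene and a change in RNA per cell cannot be told apart.

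**Figure D1:**
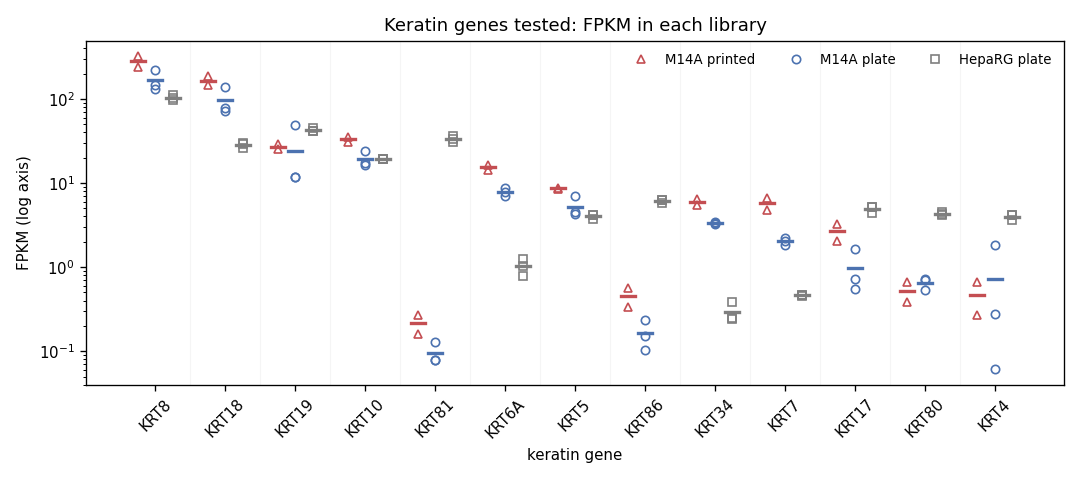
FPKM on a log axis in each library for the 13 keratin genes tested, with M14A printed (triangles, n = 2), M14A plate (circles, n = 3) and HepaRG plate (squares, n = 3); bars are group means. KRT8 and KRT18 lead in both M14A groups, while the M14A libraries lie far below the HepaRG libraries for KRT81 and KRT86.

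Several of these genes have near-identical neighbours, and gene counting can split or lose their reads. KRT81 and KRT86 are 93.6% identical over their aligned coding bases, with an unbroken identical run of 605 bases, and 43.7% of the 50-base words of KRT81 transcripts also occur in other genes. KRT6A is 97.9% identical to KRT6C and 97.5% to KRT6B. KRT83 is 93.3% identical to KRT81 over aligned coding bases, with a longest identical run of 95 bases. The stretches below are each 90 bases of 1 coding exon, read from GENCODE transcripts on GRCh38. They were picked for the fewest differences from KRT86, with at least 1 difference in each copy. They therefore do not show the average difference between these genes. Capitals mark bases that differ from KRT81. The stretches lie at chr12:52287157-52287246 (minus strand) for KRT81, chr12:52306136-52306225 (plus strand) for KRT86 and chr12:52315948-52316037 (minus strand) for KRT83.
KRT81: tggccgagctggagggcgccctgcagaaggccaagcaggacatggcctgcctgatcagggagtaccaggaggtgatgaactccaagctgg
KRT86: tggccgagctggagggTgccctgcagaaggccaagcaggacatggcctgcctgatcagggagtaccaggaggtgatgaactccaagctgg
KRT83: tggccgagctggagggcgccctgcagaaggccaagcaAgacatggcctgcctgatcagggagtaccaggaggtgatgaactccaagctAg

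KRT8 and KRT18, the pair that makes up the filaments of hepatocytes, were the most abundant keratins in both M14A groups. KRT8 (ENSG00000170421, chromosome 12, 52897187 to 52949954, minus strand) stood at 321 and 239 FPKM in M14A printed, 220.3, 146 and 133 FPKM in M14A plate, and 101, 97.3 and 111 FPKM in HepaRG plate. Its groups did not overlap, and M14A plate library 1 lay closest to the printed libraries. KRT8 was called higher in M14A printed, at a mean of 279.8 ± 58.4 FPKM against 166 ± 47.3 FPKM in M14A plate (log2 difference 0.77 with SE 0.23, adjusted p = 0.033). M14A plate was in turn called higher than HepaRG plate, at 103 ± 6.99 FPKM (log2 difference 0.65 with SE 0.21, adjusted p = 0.043). Both calls of KRT8 sit near the threshold. The second was lost when M14A plate library 2 or any HepaRG library was left out (adjusted p = 0.0587 to 0.134), and its adjusted p ranged from 0.00305 to 0.134 over 18 alternative settings. Without M14A plate library 1 the log2 difference between the lines was 0.43.

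KRT18 (ENSG00000111057, chromosome 12, 52948871 to 52952901, plus strand) is the type I partner of KRT8 and the only type I gene in the chromosome 12 cluster. It had 185 and 145 FPKM in M14A printed, 138, 77.9 and 71.9 FPKM in M14A plate, and 28.8, 26.3 and 30.1 FPKM in HepaRG plate. Each M14A library exceeded each HepaRG library, and the printed libraries exceeded the M14A plate libraries. KRT18 was 3.38-fold higher in M14A plate than HepaRG plate by group means, at 96.1 ± 36.8 against 28.4 ± 1.92 FPKM (log2 difference 1.66 with SE 0.24, adjusted p = 0.0010), and this call held in all 18 alternatives. In M14A printed it averaged 165 ± 28.3 FPKM, higher than M14A plate (log2 difference 0.82 with SE 0.27, adjusted p = 0.045). That call and the KRT8 call in printed cells each held in 7 of 18 alternatives, and among the settings that left out 1 library they held only without M14A plate library 1 (adjusted p = 0.000456 for KRT18 and 0.000475 for KRT8, over ranges of 0.000456 to 0.775 and 0.000475 to 0.97).

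Because KRT18 differed more between the lines than KRT8 did, the balance of the pair differed. The ratio of KRT8 to KRT18 FPKM was 1.74 and 1.65 in M14A printed, 1.59, 1.87 and 1.85 in M14A plate, and 3.51, 3.70 and 3.68 in HepaRG plate. The M14A and HepaRG libraries did not overlap, whereas M14A printed fell within the range of M14A plate. The ratio averaged 1.77 ± 0.155 in M14A plate and 3.63 ± 0.101 in HepaRG plate (two-sided exact permutation test, p = 0.10, the smallest that 3 against 3 allows, n = 3 each). In M14A printed it averaged 1.69 ± 0.0636, against 1.77 ± 0.155 in M14A plate (two-sided exact permutation test, p = 0.60, smallest possible 0.10). The ratio is no ratio of molecules, since the authors' gene length for KRT8 is 6881 bases and its longest coding transcript has 2437. Exons of the 2 genes overlap by 525 bases on opposite strands, and the strand setting of the counting is not given in the sources used here.

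KRT19 (ENSG00000171345, chromosome 17, 41523617 to 41528308, minus strand), a type I keratin of bile duct cells, had 28.7 and 25.1 FPKM in M14A printed, 49.0, 11.6 and 11.6 FPKM in M14A plate, and 41.2, 41.5 and 45.4 FPKM in HepaRG plate. M14A plate library 1 lay above all other libraries, and its 2 companions lay below all others. With that spread KRT19 passed no test, with a log2 fold change of 0.48 in M14A printed against M14A plate (SE 0.52, 95% interval -0.71 to 1.67, adjusted p = 0.52) and -1.13 in M14A plate against HepaRG plate (SE 0.47, interval -2.19 to -0.06, adjusted p = 0.10). Without M14A plate library 1, KRT19 was called higher in M14A printed (1.14, adjusted p = 1.5e-04) and lower in M14A plate than HepaRG plate (-1.79, adjusted p = 7.75e-06). Over all alternatives these adjusted p-values ranged from 1.5e-04 to 0.912 and from 7.75e-06 to 0.246.

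KRT7 (ENSG00000135480, chromosome 12, 52232520 to 52252186, plus strand), the type II keratin of bile duct cells, was called in both comparisons. It had 6.66 and 4.82 FPKM in M14A printed, 1.82, 2.04 and 2.22 FPKM in M14A plate, and 0.467, 0.468 and 0.455 FPKM in HepaRG plate, with no overlap between groups. KRT7 was called higher in M14A printed than M14A plate (5.74 ± 1.30 against 2.03 ± 0.202 FPKM, log2 difference 1.14 with SE 0.15, adjusted p = 0.0012). It was also higher in M14A plate than HepaRG plate (0.463 ± 0.00712 FPKM, log2 difference 1.05 with SE 0.13, adjusted p = 4.3e-04). It was the one keratin called higher in printed cells in every alternative that tested it. Of the biliary markers that are not keratins, CD24, SPP1 and SOX9 were lower in M14A plate than HepaRG plate, and none of these 3 was called in printed cells; their part in the KRT7 and KRT19 values was not tested. KRT7 exons overlap KRT7-AS on the opposite strand, so reads of those 2 genes cannot be told apart without strand.

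KRT80, a type II keratin described in many epithelia, had 0.670 and 0.383 FPKM in M14A printed, 0.532, 0.706 and 0.724 FPKM in M14A plate, and 4.15, 4.23 and 4.49 FPKM in HepaRG plate (ENSG00000167767, chromosome 12, 52168996 to 52192000). The M14A groups overlapped, and every HepaRG library was higher. KRT80 was lower in M14A plate than HepaRG plate, at 0.654 ± 0.106 against 4.29 ± 0.178 FPKM (log2 difference -1.68 with SE 0.12, adjusted p = 1.7e-05). Between M14A printed and M14A plate the difference did not pass (-0.12, interval -0.42 to 0.18, adjusted p = 0.52).

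Keratins of stratified epithelia were present at lower levels, and they did not move as a block between the lines. KRT10 (ENSG00000186395, chromosome 17, 40818117 to 40822595), a type I keratin of differentiating epidermis, had 35.6 and 31.0 FPKM in M14A printed, 24.3, 17.5 and 16.4 FPKM in M14A plate, and 19.0, 19.5 and 19.1 FPKM in HepaRG plate. The plate groups overlapped and did not differ beyond their spread (log2 fold change -0.01, interval -0.37 to 0.36, adjusted p = 0.98). The printed libraries lay above both, and KRT10 was called higher in M14A printed, at 33.3 ± 3.23 against 19.4 ± 4.29 FPKM in M14A plate (0.77, SE 0.18, adjusted p = 0.012). That call held in 14 of 18 alternatives (adjusted p 0.000221 to 0.803) and was lost without printed library 1 (0.67, adjusted p = 0.0872). Of the 8 keratins called higher in printed cells, 4 had an entry in the RefSeq promoter table, and that of KRT10 is shown because its start matches the deposited gene end most closely. It covers the 250 bases before the start at chr17:40822615-40822864 (GRCh38.p14, minus strand), with a TATAAA match in capitals whose first base lies 29 bases upstream.
KRT10: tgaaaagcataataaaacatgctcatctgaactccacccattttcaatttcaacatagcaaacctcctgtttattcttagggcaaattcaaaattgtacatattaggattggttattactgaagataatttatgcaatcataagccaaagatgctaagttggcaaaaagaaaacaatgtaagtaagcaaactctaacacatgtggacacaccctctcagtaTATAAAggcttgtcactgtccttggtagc
The table held 34 of the 55 keratins in 38 entries, some genes having several starts. TATAAA was found on either strand in 21 of the 38 entries, each from a different gene, against 10.7% of all 35116 entries of that length. GGGCGG was found in 4 of 38 (42.6% of all entries), and neither TGANTCA (6.57%) nor CAAAGTCCA (0.325%) in any. These are matches of letters in a window and not sites.

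KRT5 (ENSG00000186081, chromosome 12, 52514575 to 52520687), the type II keratin of basal epidermal cells, had 8.72 and 8.56 FPKM in M14A printed, 6.95, 4.47 and 4.30 FPKM in M14A plate, and 4.12, 4.21 and 3.73 FPKM in HepaRG plate. It was higher in M14A printed than M14A plate (8.64 ± 0.112 against 5.24 ± 1.49 FPKM, log2 difference 0.65 with SE 0.18, adjusted p = 0.026), a call that held in 9 of 18 alternatives (adjusted p 0.000226 to 0.968). The plate groups did not overlap, yet their difference did not pass (0.29, interval -0.08 to 0.66, adjusted p = 0.21). Its usual type I partner KRT14 was nearly absent, at 2 and 3 reads in M14A printed, 1, 0 and 0 in M14A plate, and 14, 13 and 12 in HepaRG plate.

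KRT6A, a type II keratin induced in wounded epidermis, had 16.3 and 14.3 FPKM in M14A printed, 7.05, 8.67 and 7.91 FPKM in M14A plate, and 0.780, 1.25 and 1.04 FPKM in HepaRG plate (ENSG00000205420, chromosome 12, 52487174 to 52493257). The 3 groups stood in steps with no overlap. KRT6A was higher in M14A printed, at 15.3 ± 1.38 against 7.88 ± 0.811 FPKM in M14A plate (log2 difference 0.88 with SE 0.15, adjusted p = 0.0034), and 7.70-fold higher in M14A plate than HepaRG plate (1.02 ± 0.235 FPKM, log2 difference 2.14 with SE 0.13, adjusted p = 8.2e-06). Its copies had far fewer reads: KRT6B had 20 and 15 in M14A printed, 26, 13 and 15 in M14A plate and 3, 1 and 0 in HepaRG plate, and KRT6C had at most 8 in any library. Given the identities above, reads from parts shared by the 3 genes cannot be placed with certainty.

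KRT17 and KRT4 were lower in M14A plate than HepaRG plate. KRT17, a type I keratin that pairs with KRT6 proteins in skin appendages, had 3.27 and 2.07 FPKM in M14A printed, 1.64, 0.556 and 0.731 FPKM in M14A plate, and 5.12, 5.24 and 4.42 FPKM in HepaRG plate (ENSG00000128422, chromosome 17, 41619441 to 41624842). Its M14A plate mean was 0.975 ± 0.582 FPKM, against 4.93 ± 0.441 FPKM in HepaRG plate (log2 difference -1.62 with SE 0.21, adjusted p = 5.8e-04). KRT17 was higher in M14A printed than M14A plate (2.67 ± 0.850 FPKM, 0.91, SE 0.24, adjusted p = 0.019), and both printed libraries stayed below each HepaRG library. The printed-cell call held in 12 of 18 alternatives (adjusted p 0.00114 to 0.144) and was lost without printed library 1 (0.67, adjusted p = 0.144) or M14A plate library 2 (0.76, adjusted p = 0.0547). Thus KRT6A and KRT17 differed between the lines in opposite directions.

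KRT4, a type II keratin of the mucosa of mouth and oesophagus, had 0.271 and 0.670 FPKM in M14A printed, 1.85, 0.278 and 0.0614 FPKM in M14A plate, and 3.59, 4.19 and 4.17 FPKM in HepaRG plate (ENSG00000170477, chromosome 12, 52806549 to 52814551). M14A plate library 1 was again the highest of its group, and no M14A library reached a HepaRG library. KRT4 was lower in M14A plate than HepaRG plate (0.730 ± 0.977 against 3.98 ± 0.339 FPKM, log2 difference -1.66 with SE 0.33, adjusted p = 0.0053), and printed and plate M14A cells did not differ beyond their spread (-0.11, interval -0.94 to 0.72, adjusted p = 0.84). Without M14A plate library 1 the difference between the lines was -2.09 (adjusted p = 4.75e-05, over a range of 4.75e-05 to 0.0235 in all alternatives), and that between printed and plate M14A cells turned to 0.32 (adjusted p = 0.131, range 0.131 to 0.977).

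Hair keratins differed between the lines in both directions. KRT81 (ENSG00000205426, chromosome 12, 52285913 to 52291534, minus strand), a type II keratin of the hair cortex, had 0.271 and 0.160 FPKM in M14A printed, 0.130, 0.0796 and 0.0790 FPKM in M14A plate, and 33.2, 30.6 and 36.0 FPKM in HepaRG plate. In reads this was 7 and 5 in M14A printed and 4, 3 and 3 in M14A plate, against 1205, 1358 and 1455 in HepaRG plate. KRT81 was thus the third most abundant keratin of HepaRG plate by FPKM and close to the detection limit in every M14A library. Between M14A plate and HepaRG plate the log2 fold change was -4.96 (SE 0.11, adjusted p = 4.1e-08), and between M14A printed and M14A plate it was 0.15 (interval -0.13 to 0.43, adjusted p = 0.39).

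KRT86 (ENSG00000170442, chromosome 12, 52249300 to 52309163, plus strand), its close copy, followed at a lower level, with 0.562 and 0.335 FPKM in M14A printed, 0.105, 0.150 and 0.233 FPKM in M14A plate, and 6.32, 5.71 and 6.32 FPKM in HepaRG plate. Every HepaRG library stood above every M14A library (log2 fold change of M14A plate against HepaRG plate -2.61, SE 0.12, adjusted p = 1.2e-06). In M14A printed against M14A plate it missed the threshold (0.31, interval 0.02 to 0.61, adjusted p = 0.095). HepaRG libraries held 23.7, 23.1 and 21.8 KRT86 reads per 100 KRT81 reads. How many KRT86 reads came from KRT81 transcripts was not tested. KRT83, the third copy, had at most 2 reads in any library.

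KRT34 (ENSG00000131737, chromosome 17, 41377650 to 41382403, minus strand) is a type I hair keratin and ran opposite to KRT81 and KRT86. It had 5.50 and 6.45 FPKM in M14A printed, 3.22, 3.39 and 3.31 FPKM in M14A plate, and 0.243, 0.248 and 0.382 FPKM in HepaRG plate. Its 3 groups did not overlap, and its M14A plate libraries were the most alike of any tested keratin relative to their mean. KRT34 was 11.4-fold higher in M14A plate than HepaRG plate by group means, at 3.31 ± 0.0880 against 0.291 ± 0.0787 FPKM (log2 difference 1.74 with SE 0.11, adjusted p = 8.7e-06). It was higher again in M14A printed, at 5.98 ± 0.665 FPKM (0.69, SE 0.12, adjusted p = 0.0040).

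**Figure D2:**
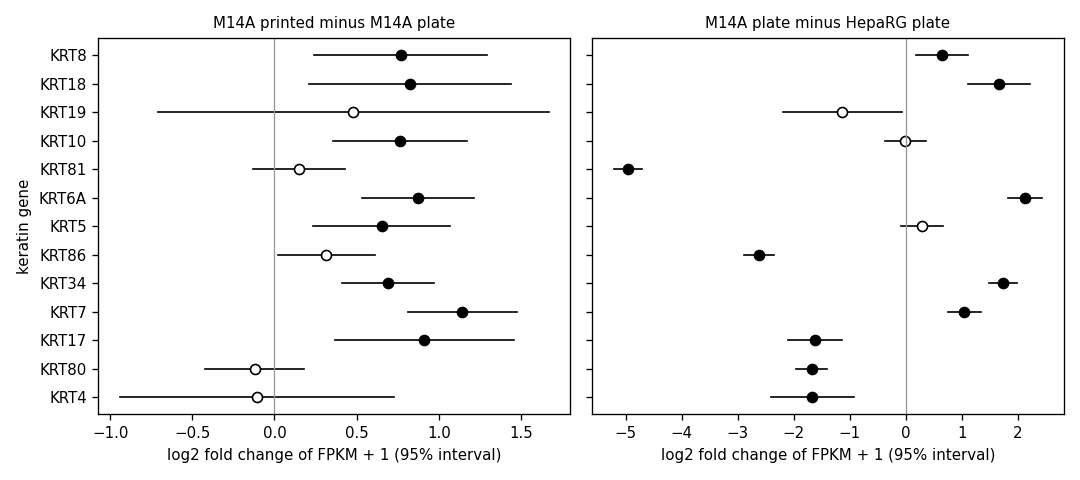
Log2 fold change of FPKM + 1 with its 95% interval for the 13 keratin genes in M14A printed minus M14A plate (left) and M14A plate minus HepaRG plate (right); filled points passed the test. In the left panel 8 filled points lie right of 0 and none left, and in the right panel 5 lie on each side, with KRT81 at -4.96.

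Taking all 55 genes, summed keratin FPKM was 614 and 479 in M14A printed, 458, 274 and 254 in M14A plate, and 251, 243 and 269 in HepaRG plate. M14A plate libraries 2 and 3 thus held about as much summed keratin FPKM as the HepaRG libraries, but in another mixture. KRT8 and KRT18 made up 82.3 and 80.0% of it in M14A printed, 78.4, 81.5 and 80.7% in M14A plate, and 51.8, 50.8 and 52.4% in HepaRG plate. These shares depend on the authors' gene lengths. Of keratin reads, not divided by length, the pair took 90.7 and 89.3% in M14A printed and 88.6, 90.4 and 89.8% in M14A plate. In HepaRG plate it took 73.0, 72.2 and 73.7% of keratin reads. Hair keratins made up 1.08 and 1.497% in M14A printed, 0.838, 1.41 and 1.51% in M14A plate, and 15.9, 15.1 and 15.9% in HepaRG plate. The sum of type II over that of type I was 1.37 and 1.28 in M14A printed, 1.10, 1.46 and 1.42 in M14A plate, and 1.61, 1.58 and 1.66 in HepaRG plate. In all 3 FPKM quantities the HepaRG libraries lay outside the range of the M14A libraries, while printed libraries lay inside or near that of M14A plate.

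**Figure D3:**
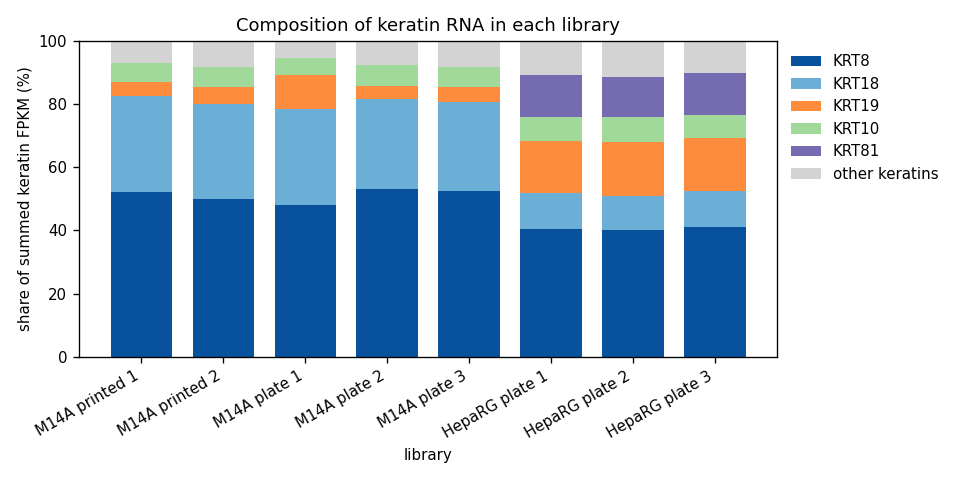
Share of summed keratin FPKM (percent) taken by KRT8, KRT18, KRT19, KRT10, KRT81 and all other keratins in each library, M14A printed at the left, then M14A plate, then HepaRG plate. KRT8 and KRT18 fill 78.4 to 82.3% of the M14A bars and 50.8 to 52.4% of the HepaRG bars, where KRT81 takes 12.6 to 13.4%.

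The 30 detected but untested keratins reached at most 0.901 FPKM, and 7 of them exceeded 10 reads in some library. KRT16, a type I wound-response keratin, had 1 and 3 reads in M14A printed, 4, 5 and 0 in M14A plate, and 42, 28 and 33 in HepaRG plate. KRT23, a type I keratin of simple epithelia, had 2 and 11 reads in M14A printed, 5, 4 and 4 in M14A plate, and 25, 42 and 38 in HepaRG plate. KRT71, a keratin of the inner root sheath, had 2 and 0 reads in M14A printed, 2, 2 and 0 in M14A plate, and 15, 20 and 29 in HepaRG plate. These 3 genes, like KRT14, had more reads in each HepaRG library than in any M14A library.

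KRT15, a type I basal-cell keratin, showed the reverse, with 36 and 46 reads in M14A printed, 59, 26 and 41 in M14A plate, and 4, 4 and 7 in HepaRG plate. KRT222 had 12 and 13 reads in M14A printed, 2, 8 and 17 in M14A plate, and 2, 3 and 5 in HepaRG plate, with overlap between the plate groups. A fit with no filter on low values called KRT15 and KRT6B higher in M14A plate than HepaRG plate (adjusted p = 0.046 and 0.0499), and KRT14, KRT16, KRT23, KRT71 and KRT75 lower (adjusted p = 0.0018 to 0.010). In that fit, which called 6.17% of 36423 genes higher and 6.66% lower, these counts were 6 higher and 10 lower in all, and KRT8 was not called.

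Reads were absent from 1 plate group in a few cases. KRT75, a keratin of the hair follicle companion layer, had 0 reads in M14A plate and 23 in HepaRG plate, at least 6.74-fold lower in M14A plate with a floor of 3 reads over the group. KRT74 was at least 3.22-fold lower in M14A plate, where it had 0 reads, against 11 in HepaRG plate. KRT31, a type I hair keratin in the same cluster as KRT34, had 10 reads in M14A plate and 0 in HepaRG plate, at least 3.79-fold higher in M14A plate. These folds rest on few reads, and their floors cover counting error only, at a depth where 1 read on a gene of 1 kb equals 0.0435 to 0.0747 FPKM.

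**Figure D4:**
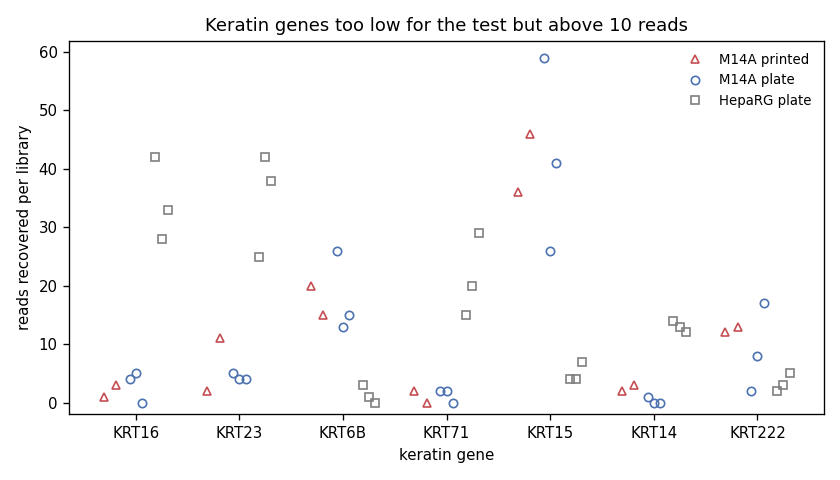
Reads per library for the 7 keratin genes that were too low for the test but exceeded 10 reads in a library, with M14A printed (triangles), M14A plate (circles) and HepaRG plate (squares) side by side. HepaRG libraries lie highest for KRT16, KRT23, KRT71 and KRT14, and lowest for KRT6B and KRT15.

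The size of the printed-cell change depended on scaling. The authors' denominators follow median-ratio size factors, and the deposited FPKM sum to more in printed than in plate libraries, with a maximum of 514152. With every library rescaled to an equal FPKM total, all genes had a median log2 fold change of -0.51, against 0.01 on the deposited scale, and the calls over all genes went to 494 higher and 6613 lower, so that 6.95% of calls were higher, against 53.3% on the deposited scale. KRT7 was then the only keratin called higher (log2 fold change 0.53, adjusted p = 0.031, which ranged from 0.000592 to 0.0311 over all alternatives), and no keratin was called lower. The log2 fold changes of KRT8, KRT18 and KRT10 became 0.01, 0.07 and 0.03 at equal totals. Relative to the median of all genes they were 0.51, 0.57 and 0.54 there. Thus the calls state that these keratins rose relative to the bulk of genes, and the deposited scale does not show whether the bulk itself shifted.

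**Figure D5:**
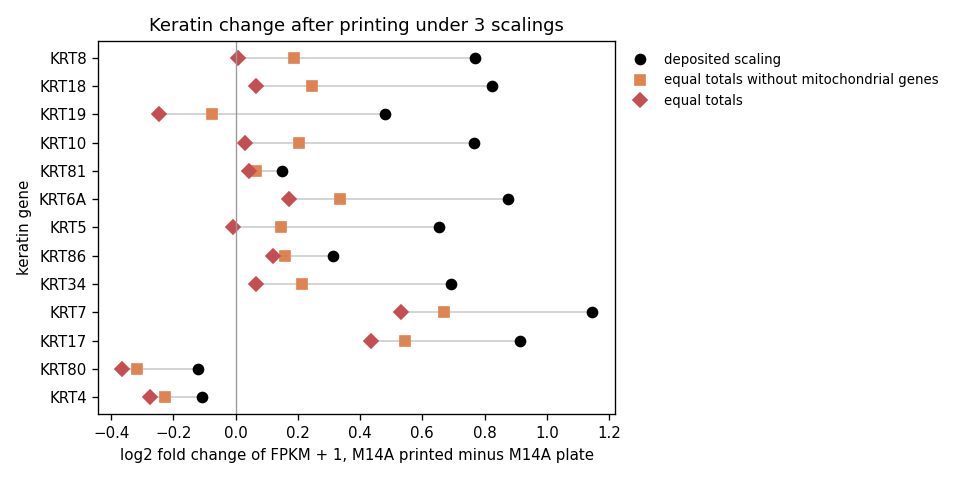
Log2 fold change of FPKM + 1 in M14A printed minus M14A plate for the 13 keratin genes on the deposited scale (circles), at equal FPKM totals without mitochondrial genes (squares) and at equal FPKM totals (diamonds). Most genes lie within 0.3 of 0 at equal totals, where KRT7 at 0.53 was the only one called.

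Measures of the libraries moved together with printing. Mitochondrially encoded genes took 13.3 and 16.4% of reads in M14A printed and 8.21 to 9.72% in M14A plate, and the median log2 fold change was 0.21 for genes up to 2000 bases and -0.25 for genes over 8000. The tested keratins are 1751 to 6881 bases long. With each library's trend over gene length and GC content removed, 7 keratins were called higher in printed cells and 0 lower, and KRT34 was the one lost (adjusted p = 0.0531). Over all genes 23.9% were called higher and 21.3% lower in that fit. Whether these library measures contribute to the other calls was not tested further. Keratinocyte markers, 9 in the table and 5 at 1 FPKM or more in some group, summed to 47.4 to 51.3 FPKM in M14A printed, 29.5 to 38.6 FPKM in M14A plate and 23.9 to 24.7 FPKM in HepaRG plate, with LOR at 0 throughout and TP63 at most at a mean of 0.0906 FPKM. KRT10 and KRT5 are themselves on that list, and KRT10 makes up most of the sum. Among the others, IVL (involucrin) had 4.12 ± 1.79 FPKM in M14A plate and 0.00739 ± 0.0128 FPKM in HepaRG plate, FLG (filaggrin) had 2.84 ± 0.443 FPKM in M14A plate and 0.252 ± 0.0523 FPKM in HepaRG plate, and SBSN had 2.00 ± 0.377 FPKM in M14A plate and 0.361 ± 0.186 FPKM in HepaRG plate. All 3 were called higher in M14A plate, as were 16.1% of all genes tested, while KRT10 and KRT5 were not called there. KRT14, also on that list but too low to be tested, went the other way. It had 0.00915 ± 0.0158 FPKM in M14A plate and 0.275 ± 0.0441 FPKM in HepaRG plate. In M14A printed, SBSN was called higher than in M14A plate (log2 difference 0.49, adjusted p = 0.047) and FLG lower (-1.13, adjusted p = 0.0015). The list's part in the keratin results was not tested.

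Genes whose products anchor keratin filaments were mixed. Over all genes tested, 17.7% were called higher and 15.5% lower in M14A printed than M14A plate, and 16.1% and 14.7% in M14A plate than HepaRG plate. Of 14 desmosome genes 8 were tested. In M14A printed, PERP was higher than M14A plate (54.3 ± 2.39 against 36.5 ± 1.94 FPKM, log2 fold change 0.56, adjusted p = 0.013). DSP, the plakin that ties keratin to the desmosome, was called lower near the threshold (14.4 ± 6.15 against 27.0 ± 7.80 FPKM, -0.87, adjusted p = 0.049). Its groups overlapped, at 10.1 and 18.8 FPKM in M14A printed against 18.2, 33.0 and 29.8 FPKM in M14A plate. In M14A plate, JUP (plakoglobin) and PERP were higher than in HepaRG plate, and PKP3 (plakophilin) was lower, at 0.00551 ± 0.00954 against 4.40 ± 0.0988 FPKM. Of 10 plakin and hemidesmosome genes, 8 were tested. PLEC, which links filaments to one another and to hemidesmosomes, was lower in M14A printed (17.5 ± 9.97 against 83.7 ± 18.4 FPKM in M14A plate, -2.29, adjusted p = 0.0015), as were MACF1 and EPPK1, while CD151 was higher. Genes over 8000 bases had a median log2 fold change of -0.25 in M14A printed against M14A plate. The part of that shift in these calls was not tested. In M14A plate, COL17A1, EPPK1 and ITGA6 were higher than in HepaRG plate and PPL was lower.

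Of 16 genes of other intermediate filaments, 7 were tested. DES was higher in M14A printed (79.4 ± 13.5 against 42.0 ± 12.6 FPKM in M14A plate, 0.93, adjusted p = 0.016), while NES and LMNB1 were lower. In M14A plate 0 were higher than in HepaRG plate and 3 were lower, namely BFSP1, LMNB1 and NES. Over all genes tested 16.1% were called higher and 14.7% lower there, and 17.7% and 15.5% in M14A printed against M14A plate. VIM, the filament of mesenchymal cells, named here after its values were seen, was listed at 0 in all M14A libraries and averaged 0.0910 ± 0.0356 FPKM in HepaRG plate. Among 13 genes of proteins that bind or organise keratins, 11 were tested. Of these, 3 were called higher and 2 lower in M14A plate than HepaRG plate, with a list median log2 fold change of -0.002. In M14A printed against M14A plate 0 were called higher and 2 lower, with a list median of -0.11. FAM83H, which organises keratin filaments, was lower in M14A printed (17.2 ± 6.22 against 65.9 ± 18.7 FPKM in M14A plate, -1.88, adjusted p = 0.0016). It was higher in M14A plate than HepaRG plate (27.1 ± 0.217 FPKM, 1.22, adjusted p = 0.0047).

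Most epithelial junction and polarity genes tested were higher in M14A plate than HepaRG plate. Of 16 listed, 8 were tested, and 6 of these were called higher and the other 2 not called, against 16.1% called higher over all genes, with a median log2 fold change of 1.96 for the list and -0.04 for all genes. TJP3, a tight-junction scaffold, had 8.02 ± 2.89 FPKM in M14A plate and 0.401 ± 0.0681 FPKM in HepaRG plate, and ELF3, an epithelial transcription factor, had 10.3 ± 2.52 FPKM in M14A plate and 1.09 ± 0.0679 FPKM in HepaRG plate. In M14A printed, 2 of the 8 were higher than M14A plate (CLDN7 and CLDN4) and 1 was lower (TJP1), with all genes at 17.7% and 15.5%. Of 12 transcription factors reported to act on keratin genes, 5 were tested. Over all genes, 16.1% were called higher and 14.7% lower in M14A plate than HepaRG plate, and 17.7% and 15.5% in M14A printed than M14A plate. In M14A plate, HNF4A, ELF3 and KLF4 exceeded HepaRG plate and SOX9 fell below it, and HNF4A and KLF5 were lower in M14A printed than in M14A plate.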

How the data were processed

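NEBNext Ultra libraries were made from 1 µg of TRIzol-extracted RNA per sample, per the labels' protocols. The processing tools were HISAT2 2.0.5 and also featureCounts 1.5.0-p3 (per the submitters' processing notes); for options, read length, strand and poly(A) selection, details were not given in the sources used here. Values were deposited by the authors as FPKM for each of the 8 libraries, with gene lengths. No build is stated, but coordinates of all 58735 genes equal GENCODE 29 on GRCh38. FPKM times gene length gave whole reads within 0.01 for 100.0% of non-zero values. The denominators differ from the reads (0.818 to 1.20 times) and follow median-ratio size factors (0.979 to 1.03 times). Columns left without a sample numbered 0.

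A minimum of 1 FPKM in 2 or more libraries left 14349 genes, whose log2(FPKM + 1) values were tested in limma 3.58.1 under R 4.3.3 (eBayes with trend, 3 group means, 5 residual degrees of freedom), two-sided, with Benjamini-Hochberg adjustment over all genes. Values are means ± SD. The spread of the 2 printed libraries is borrowed from all groups. Replicates of a group differed by a chi-square of 2.84 to 78.0 per degree of freedom, so none was a duplicate. On simulated reads with 200 changed genes, 97% of 2-fold and 100.0% of 4-fold changes were called for M14A plate minus HepaRG plate (13575 genes, 9 unchanged called), and 97% and 98% for M14A printed minus M14A plate (13569 genes, 15). The simulation gave all genes and groups the same spread and drew changed genes from those averaging at least 2 FPKM. Real spread was uneven, with M14A plate library 1 at chi-squares of 65.2 and 78.0 per degree of freedom from its companions. Those percentages therefore do not give the power in these data. Members, lists, markers and settings were chosen with earlier results of these data known. Keratins with a mean of at least 1 FPKM in a group are given per library, and up to 3 called genes per other list may be named.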

Additional observations from a re-analysis of the deposited data

How the results depend on the processing

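The 18 alternatives (17 planned, and removal of the length and GC trend, chosen after the data were seen) gave 462 gene values, of which 392 kept direction and side of the threshold, 50 lost the call, 7 gained one and 13 changed sign, all of these between values that were not called except KRT5. Keratins called lower in M14A plate than HepaRG plate numbered 10 of 43 tested with no filter and 3 of 10 at 5 FPKM. The filter at 5 FPKM tests fewer genes. All genes called lower were 6.66 and 12.05%, in that order, against 14.7% in the main fit. Keratins called higher between the lines numbered 4 to 6 over the settings, with all genes called higher at 6.17 to 20.8%. Keratins called higher in M14A printed than in M14A plate numbered 4 with no filter and 3 with only the groups compared. They numbered 1 at equal FPKM totals and 1 at equal totals without mitochondrial genes. All genes called higher there were 5.60, 7.40, 3.44 and 5.76%, in that order, against 17.7% in the main fit. Thus the keratin counts fell along with the share over all genes. The causes were not tested. Leaving out 1 plate library gave 4 to 9. There were 4 without M14A plate 2, 5 without M14A plate 3, 5 without HepaRG plate 1 and 9 without M14A plate 1. All genes called higher were 13.1, 15.6, 14.4 and 28.4% in these fits, in that order. Without printed library 1 or 2 the median log2 fold change of the keratins was 0.64 and 0.66, against 0.69 in the main fit. In the last 2 fits a lone printed library is assumed to vary like the other groups. With the replicate number as a block (replicate block), 5 were higher and 5 lower between the lines and 8 higher in printed cells. All genes there were at 15.7, 15.1 and 15.9%, in that order. Deviations from group means in same-numbered libraries correlated at -0.07, 0.08 and -0.16 between the lines and at 0.49 and 0.36 for the 2 printed pairs. Deviations of 2 printed libraries mirror each other, so those 2 values are not separate. The labels tie no number to a shared culture or day, and 2 pairs are too few to take the printed ones as paired. Values that changed sign were KRT10 between the lines (0.018 at median-ratio scaling, -0.17 to 0.098 leaving out 1 library), and in printed cells KRT19 (-0.25 at equal totals, -0.075 without mitochondrial genes), KRT5 (-0.0071 at equal totals), KRT81 (-0.029 with the length and GC trend removed), KRT80 (-0.26 to 0.016 leaving out 1 library) and KRT4 (0.12 at a pseudocount of 0.1, 0.55 with voom, -0.39 to 0.32 leaving out 1 library). Between the lines, equal totals gave 37.9% of all calls higher and equal totals without mitochondrial genes 45.2%, against 52.3%; in printed cells equal totals without mitochondrial genes gave 13.4%. Depth limits the 30 detected untested keratins, and floors cover counting error only.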
